A study of Mus musculus with 16 samples.

Results

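Loss of Chd7 from the anterior mesoderm was compared with control over both stages at once in 16 embryonic mouse hearts, 8 Chd7fl/fl;Mesp1-Cre and 8 control, which are all the hearts of the series. The rule took every heart whose label carries Chd7fl/fl;Mesp1Cre against every heart labelled WT, with the stage as a covariate, and looked for genes that shifted alike at E11.5 and E13.5. There were 4 hearts for each genotype at each stage, each dissected whole from a C57BL/6 embryo and hybridised singly to an Affymetrix Mouse Gene 1.0 ST array. The mutant carries a floxed Chd7 allele on both chromosomes and a Cre recombinase driven by Mesp1, a gene of the mesoderm that gives rise to myocardium and endocardium, so cells of other origin, such as cardiac neural crest, keep Chd7. Control hearts were labelled only WT, and the study's text describes them as Chd7+/+ embryos carrying Mesp1-Cre, whereas the parents named in the labels cannot have Chd7+/+ young, so their exact alleles are not settled. No treatment was given. Whether any of the embryos shared a litter is not stated, so p values measure the spread between these hearts.

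CHD7 is an ATP-dependent chromatin remodeller that binds mainly at enhancers and promoters of active genes, and heterozygous loss of it in humans causes CHARGE syndrome, of which heart defects are a common part. The heart tube grows by addition of mesodermal progenitors, then forms trabeculae, septa, valves and a conduction system, and receives nerves and coronary vessels that follow secreted guidance cues such as semaphorins and Slits. Contraction rests on release of Ca2+ from the sarcoplasmic reticulum, where calsequestrin stores it and triadin anchors the store to the release channel.

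Values are log2 expression after RMA normalisation by the authors. A gene's effect is its mean in mutant hearts minus that in control hearts on the log2 scale, taken over both stages, and a gene is said to have risen or fallen where limma gave an adjusted p under 0.05 across the 21640 probe sets that name a single gene (19937 genes). Of these genes, 90 fell in mutant hearts and 61 rose, or 0.451% and 0.306%, which is 0.757% in either direction. Of them, 66 and 38 (0.331% and 0.191%) also changed by more than 0.5, the size that the study used. At the adjusted p threshold an average of 7.55 of the 151 is allowed to be false. The median effect was -0.61 for the genes that fell and 0.58 for those that rose, against a median of 0.0022 over all genes. Effects were mostly small: 8 genes fell and 10 rose by more than 1. Genes that fell had a median level of 8.51 over the 16 hearts, against 7.73 for all genes and 7.67 for those that rose.

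Chd7 itself was measured first, as a check of the labels. Its brightest probe set read 10.64, 10.89, 10.64 and 10.84 in the control and 9.26, 9.73, 9.16 and 9.68 in the mutant hearts at E11.5, and 10.22, 9.88, 10.30 and 9.83 against 8.98, 8.98, 8.88 and 9.07 at E13.5. The mutant hearts were all lower than the control hearts of their stage, with no overlap. The effect was -1.19 (standard error 0.10, adjusted p = 1.14e-05), which leaves 43.9% of the control level, and it was -1.29 at E11.5 and -1.08 at E13.5. All 30 probe sets of Chd7 fell, with effects from -1.63 to -0.45, so the level that remains depends on the probe set. Which of them lie in the floxed part is not given in the sources used here. In a dissected heart, fewer cells of a type and less RNA per cell cannot be told apart.

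The labelled tissue was checked against markers of its parts. The cardiomyocyte genes Tnnt2, Myh6, Myl7, Nppa and Actc1 lay above percentile 99.1 of all genes' mean levels, and none of them passed between genotypes (effects from -0.09 to 0.08). Liver, thyroid and lung genes (Alb, Afp, Apoa1, Nkx2-1, Sftpc and Tg) lay between percentiles 16.5 and 43.0. Correlation of arrays within a group was between 0.969 and 0.992. Labels give no sex, but 3 genes of the Y chromosome (Uty, Kdm5d, Eif2s3y) were high in 6 of 8 control and in 3 of 8 mutant hearts, at E11.5 in 4 and 2 and at E13.5 in 2 and 1 of the 4 hearts of each group. With the mean of these genes as a covariate, 70 genes fell and 35 rose, and 62 and 33 of the main set were among them. Mutant E11.5 replicates 3 and 4 and control E13.5 replicate 1 had been noted to stand apart from their groups before this comparison was made. By mean correlation with the other hearts of their group, mutant E11.5 replicate 3 (0.971) and control E13.5 replicate 1 (0.990) were the lowest of their groups and mutant E11.5 replicate 4 (0.975) the highest. Without these 3 hearts, 72 genes fell and 31 rose, of which 58 and 26 were of the main set.

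The effects of the passing genes at the 2 stages are given as a description, since the fit that chose them favours like effects. When a mean was fitted for each of the 4 groups, the effect at each stage came from hearts of its own. All 151 genes had the same sign at both stages, against 56.3% of all genes. Part of this, and of the like sizes that follow, comes from choosing them by their mean effect. In 90 of the genes that fell and 60 of those that rose, the smaller stage effect was at least 0.5 times the mean of both, and this held for 34.2% of all genes. The effects differed by under 0.2 between the stages in 94 of the 151. The smaller was, at the median, 78.8% of the larger, and the larger was that at E11.5 in 101 and that at E13.5 in 50 genes. Across all 19937 genes, which are not independent replicates, the effects at the stages had a Pearson r of 0.279 and a Spearman rho of 0.194.

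**Figure D1:**
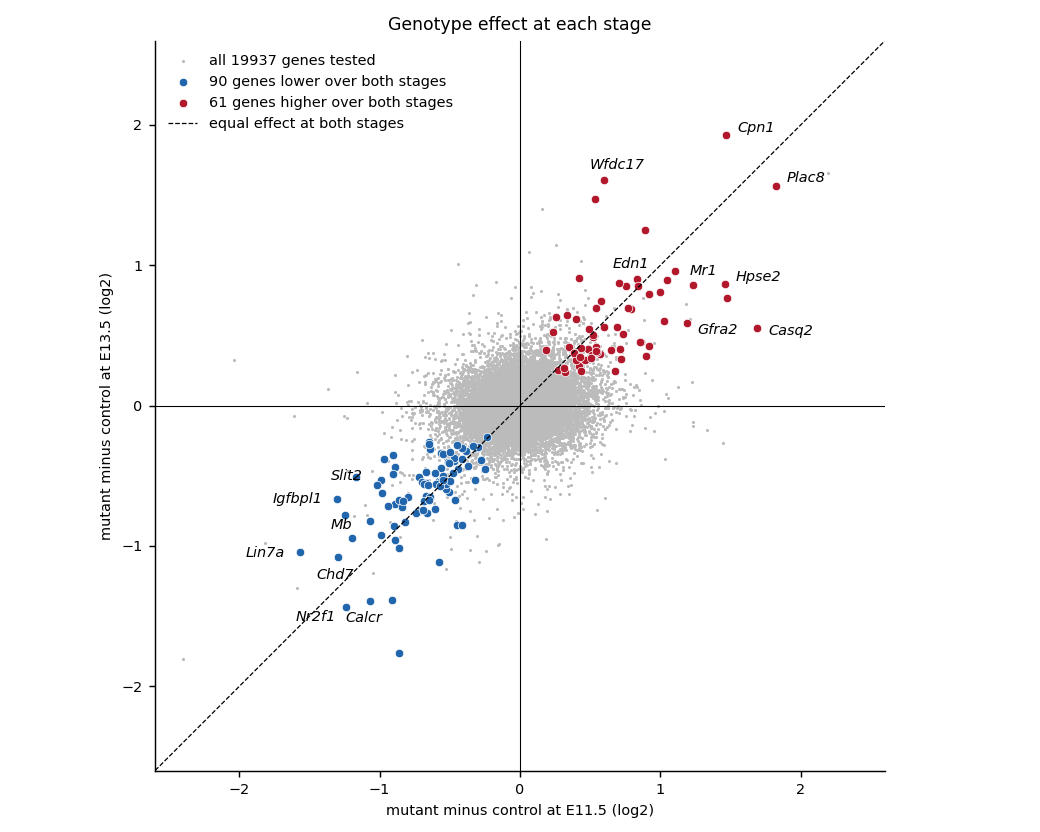
Mutant minus control difference (log2) of every gene at E11.5 (horizontal) and at E13.5 (vertical), with the 90 genes that fell over both stages in blue, the 61 that rose in red and other genes in grey. The coloured genes lie in the lower left and upper right on both sides of the dashed line of equal effects, with Casq2 far to the right of it and Wfdc17 well above it.

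Choosing genes at one stage and reading them at the other avoids that choice. With each stage fitted alone, 176 genes were lower at E11.5 by more than 0.5 at an unadjusted p under 0.01. At E13.5 137 of these (77.8%) were lower too, against 48.6% of all genes, and 71 (40.3%) were lower at an unadjusted p under 0.05, against 3.61% of all genes. Of 126 genes chosen as higher at E11.5, 96 (76.2%) were higher at E13.5 and 43 (34.1%) at p under 0.05, against 3.62%. In the reverse order, 91 of 106 genes (85.8%) chosen as lower at E13.5 were lower at E11.5, and 59 (55.7%) at p under 0.05, against 3.41%. Of 80 genes chosen as higher at E13.5, 65 (81.2%) were higher at E11.5 and 30 (37.5%) at p under 0.05, against 3.08%. The chosen genes shrank on the second reading: those lower at E11.5 had a median of -0.68 there and -0.18 at E13.5, and those lower at E13.5 a median of -0.65 there and -0.51 at E11.5.

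Whether the genotype effect differed between the stages was tested directly, as an interaction. It passed for 0 of 19937 genes (0%), with a smallest adjusted p of 0.635 in limma, and at an unadjusted p under 0.05 for 874 genes (4.38%). Of the 151 genes, 16 had such an unadjusted p. Among them, effects at E11.5 and E13.5 were -0.97 and -0.38 for Grin3a, -1.30 and -0.67 for Igfbpl1, and -0.99 and -0.53 for Slit2. They were 0.90 and 0.35 for Rgs6, and 1.19 and 0.59 for Gfra2. For Them7 (0.42 and 0.91) the larger effect was that at E13.5. Casq2 had the strongest interaction of all genes: its effect was 1.69 at E11.5 and 0.56 at E13.5, a difference of -1.13 (standard error 0.22, adjusted p = 0.635). The remaining 4 of the 5 smallest were Olfr507, Gm1968, B130024G19Rik and Vmn1r48, of which none passed over both stages, and each turned its sign between the stages. A p that misses the threshold does not show that the stages are equal, and for single genes the standard error of the difference was wide, 0.30 for Nr2f1 and 0.14 for Srl.

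Lists of genes, here and below, were chosen with results of these data known, so nothing is read from their counts. Over all genes, 0.451% fell and 0.306% rose. Among the cardiac transcription factors that were listed, the genes that passed fell. Nr2f1, which encodes the orphan nuclear receptor COUP-TFI, read 8.63, 9.03, 8.79 and 8.84 in the control and 8.22, 7.34, 7.73 and 7.04 in the mutant hearts at E11.5, and 7.97, 8.14, 8.37 and 8.42 against 7.05, 6.68, 7.06 and 6.39 at E13.5. Mutant and control hearts did not overlap at either stage. Its effect of -1.34 (standard error 0.15, adjusted p = 7.75e-05) was -1.24 at E11.5 and -1.43 at E13.5. Of 30 cardiac transcription factors measured, 4 fell and none rose, with a median of -0.01. The others were Dach1, a homologue of Drosophila dachshund (-0.66), the ETS factor gene Etv1, needed for fast conduction in the atria (-0.61), and Hand2, a basic helix-loop-helix factor of the right ventricle and outflow tract (-0.36, standard error 0.08, adjusted p = 0.0477). Hand2 is close to the threshold: its adjusted p ran from 0.00928 to 0.176 over the alternatives, and it was lost under 22 of 29.

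Genes of secreted signals changed in both directions. Of 21 genes of retinoic acid and COUP-TF, Nr2f1 fell and Aldh1a2, which makes retinoic acid in the epicardium, rose by 0.73 (standard error 0.15, adjusted p = 0.0221). A BMP ligand, Bmp5, fell (-0.46) among 30 listed genes of that pathway, and 1 of 27 Wnt ligands and antagonists, Sfrp5, rose (0.62). Other ligand genes of the TGF-beta family, on none of the lists and chosen after their values were seen, also passed. Bmp15 (adjusted p = 0.0233) and Inhba (0.0208) fell, and Gdf10 (0.0398) rose. Over the alternatives their effects ran from -0.72 to -0.58, -0.91 to -0.69 and 0.54 to 0.75. Bmp15 was lost under 9 of 28 alternatives, Inhba under 3 of 29 and Gdf10 under 18. Bmp5 was lost under 14 of 29 alternatives (adjusted p from 0.00694 to 0.18) and Sfrp5 under 17 (adjusted p from 0.00854 to 0.17). Igfbpl1, which resembles the binding proteins of insulin-like growth factors, read 9.85, 10.13, 10.12 and 9.78 in the control and 8.55, 8.95, 8.43 and 8.74 in the mutant hearts at E11.5, and 8.32, 8.72, 8.60 and 8.46 against 7.78, 7.77, 8.15 and 7.74 at E13.5. These groups did not overlap, and the effect was -0.98 (standard error 0.12, adjusted p = 0.000224). Igfbp3, a true binding protein, rose by 0.65 (not without the 3 hearts that stood apart), and no other gene of that list passed. The Wnt antagonist Dkk1 had an effect of -0.66 (standard error 0.19, adjusted p = 0.162) and did not pass. No gene passed among 20 Notch receptors, ligands and targets (median -0.04) or among 31 genes of the cell cycle (median 0.01).

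Some genes of guidance cues fell. Sema3a, a secreted semaphorin that repels axons and patterns cardiac innervation, read 9.80, 9.90, 9.87 and 9.78 in the control and 9.05, 9.03, 9.02 and 8.66 in the mutant hearts at E11.5, and 9.73, 9.94, 9.94 and 9.67 against 9.31, 8.91, 9.15 and 9.10 at E13.5. Its effect was -0.80 (standard error 0.08, adjusted p = 4.95e-05), and the highest mutant heart, at 9.31, lay below the lowest control heart, at 9.67. Sema3c, a semaphorin of the outflow tract that attracts neural crest, read 9.39, 9.38, 9.37 and 9.28 in the control and 8.93, 8.51, 8.51 and 8.92 in the mutant hearts at E11.5, and 8.99, 9.24, 9.18 and 8.82 against 8.59, 8.20, 8.78 and 8.05 at E13.5. It fell by 0.65 (standard error 0.11, adjusted p = 0.00333), to the same extent at both stages (-0.64 at the earlier and -0.65 at the later stage), and had not passed at either stage alone (adjusted p = 0.0841 and 0.188). No other gene passed among the 18 class 3 semaphorins, plexins and neuropilins, and the median was -0.01.

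The secreted cue Slit2 read 10.36, 10.46, 10.24 and 10.18 in the control and 9.17, 9.28, 9.45 and 9.40 in the mutant hearts at E11.5, and 10.93, 11.13, 11.11 and 11.08 against 10.52, 10.62, 10.48 and 10.50 at E13.5. All of the mutant hearts were lower, and the effect of -0.76 (standard error 0.08, adjusted p = 7.75e-05) was -0.99 at E11.5 and -0.53 at E13.5. Its receptor gene Robo2 fell by 0.63 (standard error 0.12, adjusted p = 0.0127), and Slitrk5, a synaptic membrane protein with repeats like those of Slits, by 0.57 (standard error 0.08, adjusted p = 0.000496). With these, 3 of 16 Slit, Robo and Slitrk genes fell and none rose (median -0.13). The related receptor Robo1 had an effect of -0.34 (standard error 0.09, adjusted p = 0.108) and did not pass. Robo2 was lost without the 3 hearts that stood apart and with a replicate block (adjusted p from 0.00249 to 0.138 over the alternatives). Epha7, 1 of 20 ephrin and Eph receptor genes, fell by 0.35 but not with the Y-linked covariate or without the 3 hearts that stood apart, and none of 22 netrin, Unc5 and teneurin genes passed.

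**Figure D2:**
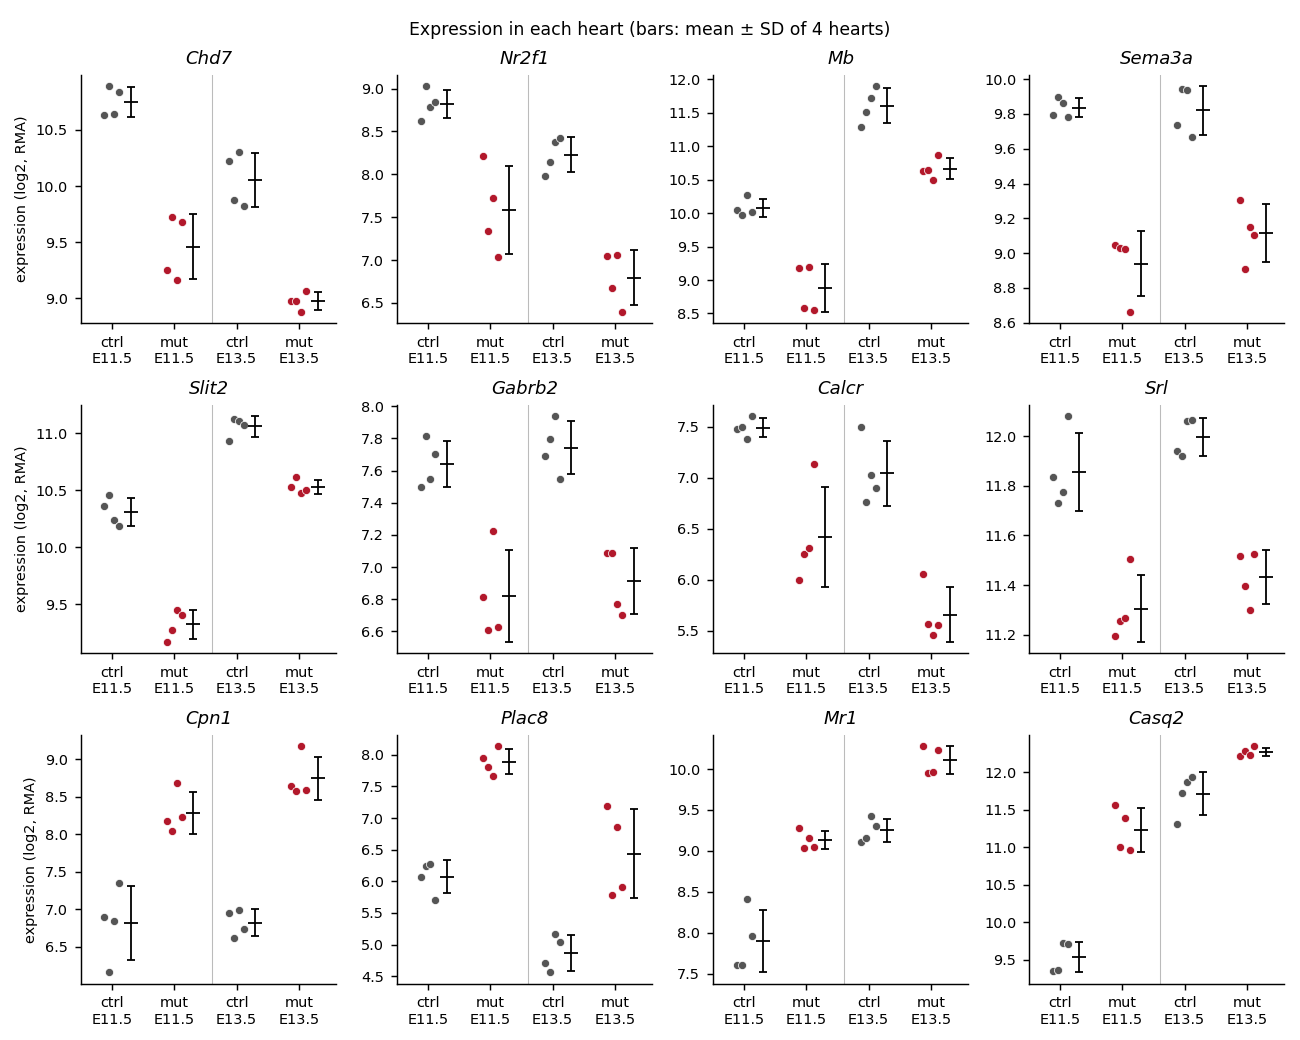
Log2 expression (RMA) of 12 genes in each of the 16 hearts, control in grey and mutant in red, with the mean and SD of 4 hearts beside each group. In all 12 genes mutant and control hearts do not overlap at either stage, although levels of several, such as Mb, Slit2, Mr1, Plac8 and Casq2, also differ between the stages.

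Some receptor and channel genes of excitable cells fell, while the medians of their lists stayed near 0. Of 27 genes for ligand-gated glutamate and GABA receptors, 4 fell and none rose. Gabrb2, a subunit of the GABA-A receptor, read 7.50, 7.81, 7.55 and 7.70 in the control and 6.81, 6.61, 7.23 and 6.63 in the mutant hearts at E11.5, and 7.69, 7.79, 7.94 and 7.54 against 7.09, 7.09, 6.77 and 6.70 at E13.5. Its groups were fully apart at both stages, and the effect was -0.83 (standard error 0.10, adjusted p = 0.000176). Its relatives Gabrg3 (-0.74) and Gabra4 (-0.57) and the NMDA receptor subunit Grin3a (-0.68) fell as well, but Gabra4 was lost under 16 of 29 alternatives (adjusted p from 0.00686 to 0.302). Among 37 potassium channel genes Kcnh7 (-0.96 (standard error 0.12, adjusted p = 0.000377)), Kcnj3, which carries the current that acetylcholine opens in the atria (-0.65 (standard error 0.13, adjusted p = 0.0187)), and Abcc9, the sulphonylurea receptor of ATP-sensitive channels (-0.48 (standard error 0.10, adjusted p = 0.0215)), fell. Kcnj3 read 8.48, 8.62, 8.55 and 8.64 in the control and 8.74, 8.03, 8.12 and 7.59 in the mutant hearts at E11.5, and 9.003, 9.29, 9.23 and 9.21 against 8.32, 8.13, 8.66 and 8.23 at E13.5, so that the groups overlapped at E11.5 but not at E13.5. Kcnmb2, a subunit of a calcium-activated potassium channel that is on none of the lists and was chosen after its values were seen, rose by 0.48 (standard error 0.10, adjusted p = 0.0177). Kcnj3, Abcc9 and Kcnmb2 did not pass with the Y-linked covariate or without the 3 hearts that stood apart. None of 26 voltage-gated calcium and sodium channel genes passed, the nearest being Cacna1d (-0.31, adjusted p = 0.0745). Calcr, the calcitonin receptor, read 7.48, 7.50, 7.38 and 7.61 in the control and 5.999, 6.26, 6.31 and 7.13 in the mutant hearts at E11.5, and 7.50, 6.76, 7.02 and 6.90 against 6.05, 5.56, 5.46 and 5.56 at E13.5, without overlap, and had an effect of -1.23 (standard error 0.15, adjusted p = 0.000201). Signals of these receptor genes were low. Mean levels were 7.28 for Gabrb2, 7.01 for Grin3a, 6.64 for Gabrg3 and 6.65 for Calcr, below the median of 7.73 over all genes.

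Of 25 nerve and glia markers, Ache, which encodes acetylcholinesterase, fell by 0.73 (standard error 0.11, adjusted p = 0.00135) together with Hand2, and the median was -0.03. The list's median in single hearts, relative to the control mean of the stage, was between -0.18 and -0.00043 in mutant E11.5 hearts, and in mutant E13.5 hearts it was between -0.08 and 0.13. Sox10, a marker of neural crest and glia, was at percentile 39.9 of all genes and had an effect of -0.14 (adjusted p = 0.776), and the part of nerve cells in these decreases was not tested.

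Genes of calcium handling changed in both directions. Srl encodes sarcalumenin, a calcium-binding protein of the sarcoplasmic reticulum, and read 11.84, 11.73, 11.77 and 12.08 in the control and 11.20, 11.26, 11.27 and 11.504 in the mutant hearts at E11.5, and 11.94, 11.92, 12.06 and 12.06 against 11.52, 11.39, 11.30 and 11.52 at E13.5. It fell by 0.56 (standard error 0.07, adjusted p = 0.000256), equally at both stages (-0.55 at E11.5 and -0.56 at E13.5). Triadin (Trdn, -0.50 (standard error 0.08, adjusted p = 0.00343)) and the ryanodine receptor gene Ryr3 (-0.43 (standard error 0.08, adjusted p = 0.00824)) fell too, whereas Casq2, cardiac calsequestrin, rose. The 19 probe sets of Trdn had effects from -1.15 to -0.04, so the size of its decrease depends on the probe set. Casq2 read 9.36, 9.37, 9.72 and 9.71 in the control and 11.56, 10.998, 11.39 and 10.97 in the mutant hearts at E11.5, and 11.31, 11.73, 11.87 and 11.94 against 12.22, 12.28, 12.23 and 12.34 at E13.5. Its groups did not overlap at either stage, and over both stages the effect was 1.12 (standard error 0.17, adjusted p = 0.00186). Its mean was 2.17 higher at E13.5 than at E11.5 in control hearts and 1.04 higher in mutant hearts. None of the others among these 22 genes passed, and the median of the list was -0.02.

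Single genes of muscle fell or rose while their lists as a whole stayed near 0. Mb, which encodes the oxygen-binding protein myoglobin, read 10.04, 9.98, 10.27 and 10.01 in the control and 9.17, 8.59, 9.20 and 8.55 in the mutant hearts at E11.5, and 11.29, 11.51, 11.72 and 11.90 against 10.63, 10.65, 10.50 and 10.87 at E13.5. Groups were apart at each stage, and the effect was -1.07 (standard error 0.12, adjusted p = 7.49e-05). Cox8b, the muscle form of a cytochrome c oxidase subunit, fell by 0.84 (standard error 0.16, adjusted p = 0.0138). On a list of 29 genes for oxidative phosphorylation (median 0.06), only Cox8b and Mb passed, and Mb encodes no part of that pathway. Among 48 sarcomere genes the myosin light chain Myl1 (-1.15 (standard error 0.22, adjusted p = 0.0134)) and the slow-type myosin-binding protein Mybpc1 (-1.01 (standard error 0.16, adjusted p = 0.00238)) fell, both better known from skeletal muscle, and Myom2, a protein of the M-band, rose (0.97 (standard error 0.15, adjusted p = 0.00169)). The median of the list was -0.01. Myl1 overlapped at E13.5, where mutant E13.5 replicate 2 read 9.62 against controls from 9.31 to 9.93, and did not pass without the 3 hearts that stood apart or with a replicate block (adjusted p from 0.000592 to 0.0778), and Cox8b did not pass with the Y-linked covariate or a replicate block (adjusted p from 0.00571 to 0.0784). Of 18 regulators of skeletal muscle only Met, the receptor of hepatocyte growth factor, passed (0.56, but not with the Y-linked covariate or without the 3 hearts that stood apart), and Myod1 and Myog had effects of -0.03 and -0.08 at percentiles 43.8 and 30.5. Of 20 genes of trabecular and chamber myocardium, Sema3a, Slit2 and Pcdh7 (-0.31) fell and Gja5, the connexin of trabeculae and the conduction system, rose (0.38 (standard error 0.08, adjusted p = 0.0228)). Gja5 was lost with a replicate block and when 1 of 6 hearts was left out (mutant E11.5 replicate 2, mutant E13.5 replicates 2 and 3, control E13.5 replicates 1, 2 and 4) (adjusted p from 0.00102 to 0.264), and Pcdh7 under 21 of 29 alternatives.

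Receptors, ligands and regulators of signalling were also among the genes that rose. Gfra2, the receptor of neurturin, a survival factor of parasympathetic neurons, read 7.42, 7.72, 7.30 and 7.01 in the control and 8.59, 8.42, 8.64 and 8.56 in the mutant hearts at E11.5, and 7.42, 7.54, 7.63 and 7.60 against 8.69, 7.73, 8.24 and 7.89 at E13.5. Its groups did not overlap, and the effect was 0.89 (standard error 0.14, adjusted p = 0.0024). Edn1, which encodes endothelin 1, read 8.40, 8.22, 8.51 and 8.71 in the control and 9.05, 8.79, 9.33 and 10.02 in the mutant hearts at E11.5, and 8.78, 8.96, 8.87 and 8.71 against 10.38, 9.15, 9.46 and 9.96 at E13.5 and rose by 0.87 (standard error 0.17, adjusted p = 0.0154), without overlap, whereas the endothelin receptor gene Ednrb fell by 0.52 (standard error 0.10, adjusted p = 0.0107). Edn1 did not pass with the Y-linked covariate or without the 3 hearts that stood apart (adjusted p from 0.00634 to 0.126), and nor did Ednrb. Rgs6, which shortens muscarinic signalling in pacemaker cells, read 8.59, 8.23, 8.39 and 8.42 in the control and 9.41, 9.17, 9.14 and 9.49 in the mutant hearts at E11.5, and 9.004, 9.22, 9.23 and 9.22 against 9.76, 9.34, 9.30 and 9.69 at E13.5. It rose by 0.62 (standard error 0.11, adjusted p = 0.00498), without overlap, and did not pass without these 3 hearts (adjusted p from 0.000598 to 0.0655). In all, 2 of 19 pacemaker and conduction genes rose and 1 fell, and 2 of 17 genes of GDNF family signalling and the endothelins listed with them rose and 1 fell.

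The largest increases were those of Cpn1 and Plac8. Cpn1, the catalytic subunit of carboxypeptidase N, which trims peptides in blood plasma, read 6.90, 6.16, 6.85 and 7.35 in the control and 8.17, 8.04, 8.68 and 8.23 in the mutant hearts at E11.5, and 6.96, 6.61, 6.98 and 6.73 against 8.65, 8.58, 9.17 and 8.58 at E13.5. Its groups were far apart, and the effect of 1.70 (standard error 0.16, adjusted p = 2.37e-05) was a 3.24-fold rise. Plac8, a small protein found in placenta and blood cells, read 6.06, 6.25, 6.27 and 5.70 in the control and 7.95, 7.81, 7.67 and 8.14 in the mutant hearts at E11.5, and 4.71, 4.56, 5.17 and 5.03 against 7.20, 5.78, 6.86 and 5.90 at E13.5. At E13.5 mutant hearts fell into a higher and a lower pair, both above the controls, and the effect was 1.69 (standard error 0.18, adjusted p = 7.12e-05). Mr1, an MHC-like protein that presents vitamin metabolites to T cells, read 7.61, 7.61, 8.41 and 7.96 in the control and 9.27, 9.04, 9.16 and 9.05 in the mutant hearts at E11.5, and 9.11, 9.16, 9.43 and 9.30 against 10.28, 9.96, 9.96 and 10.23 at E13.5 and rose by 1.04 (standard error 0.12, adjusted p = 7.75e-05). Cpn1 and complement factor I (Cfi, 1.03) were the genes that rose among 25 complement and plasma proteins made by the liver (median 0.05), and Alb and Afp had effects of 0.28 and 0.10 (adjusted p = 0.876 and 0.947), at percentiles 34.7 and 29.5. Cfi overlapped at E13.5, where mutant replicate 2 read 6.67 and control replicate 4 read 6.78. Others with a large increase and hearts fully apart were Hpse2, a relative of heparanase (1.16), the kinase gene Camk1d (0.90), the chloride channel gene Clic6 (0.86), occludin of tight junctions (Ocln, 0.80), the amino acid transporter gene Slc7a8 (0.66), the Wnt protease gene Trabd2b (0.66) and Them7 (0.66).

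Large decreases with hearts fully apart at both stages were also seen for Lin7a, a scaffold protein of cell junctions (-1.30 (standard error 0.18, adjusted p = 0.000729)), Fndc3c1 (-0.95), the leucine-rich repeat gene Lrrn3 (-0.94), the cytokine gene Il15 (-0.92), Dthd1 (-0.88) and the orphan receptor gene Gpr22 (-0.78). Hearts were fully apart at both stages in 60 of the genes that fell and in 26 of those that rose, against 69 (0.346%) and 38 (0.191%) of all genes, so most genes with this pattern had passed.

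Over both stages, 82 genes (51 that fell and 31 that rose) passed that had passed at neither stage alone. At E11.5 alone 105 genes (0.527%) and at E13.5 alone 24 (0.12%) passed in the fit of 4 group means. Of the 151, 15 passed at both, 45 at E11.5 only and 9 at E13.5 only, while another 45 genes passed at E11.5 without passing over both stages, and none did so at E13.5. Passing over both stages and at neither alone favours moderate effects of like size at the stages, so values are given only as a description, for most of the 8 with the smallest p in each direction. Il15 read 7.93, 7.88, 7.41 and 6.998 in the control and 6.58, 6.71, 6.44 and 6.90 in the mutant hearts at E11.5, and 8.20, 8.54, 8.06 and 7.98 against 7.78, 7.26, 7.23 and 6.68 at E13.5, and its effect was -0.89 at E11.5 and -0.96 at E13.5. Angpt1, a ligand of the endothelial receptor Tie2, had effects of -0.83 at the earlier and -0.68 at the later stage, and the gene of this receptor, Tek, had one of -0.22 over both (adjusted p = 0.068) and did not pass. Pcsk6, a protease that activates TGF-beta family ligands, had effects of -0.66 at E11.5 and -0.77 at E13.5, the ADP receptor P2ry1 of -0.50 at the earlier and -0.62 at the later stage, and Rgs7bp, which anchors a regulator of G-protein signalling, of -0.55 at E11.5 and -0.52 at E13.5. The rising genes included Ocln (0.75 at E11.5 and 0.85 at E13.5), Lyve1 (0.79 at E11.5 and 0.69 at E13.5), Fhl2, a LIM-domain cofactor of heart muscle (0.52 at E11.5 and 0.49 at E13.5), the tyrosine kinase gene Ptk2b (0.43 at E11.5 and 0.41 at E13.5), the mitochondrial carrier gene Slc25a43 (0.35 at E11.5 and 0.42 at E13.5), Rpp25 (0.60 at the earlier and 0.56 at the later stage) and Akr1b8 (0.48 at E11.5 and 0.40 at E13.5).

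**Figure D3:**
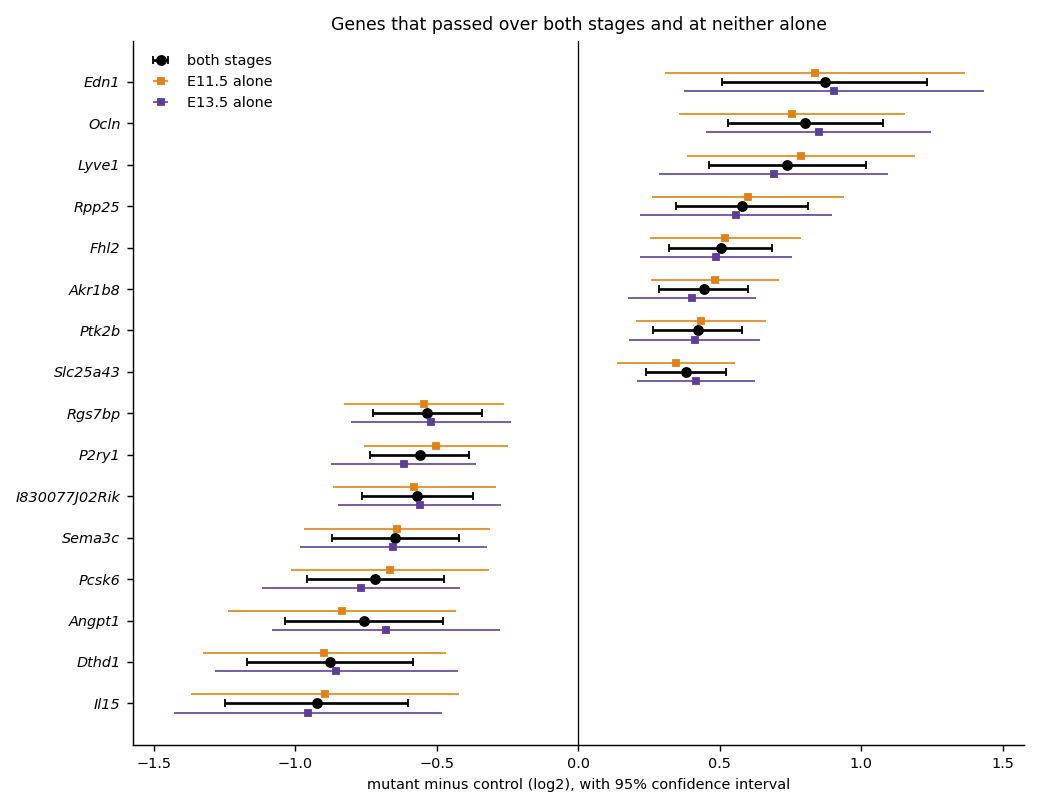
Mutant minus control difference (log2) with its 95% confidence interval for the 16 genes with the smallest p among those that passed over both stages and at neither alone, for both stages together (black), E11.5 (orange) and E13.5 (purple). Genes chosen in this way tend to have like effects at the stages. The interval over both stages is narrower than either, for Il15 from -1.25 to -0.60.

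Lists of genes for cell types and pathways were described by counts. Of 971 genes on 45 lists, 36 fell (3.71%) and 18 rose (1.85%), above the 0.451% and 0.306% of all genes, but the lists were chosen with results of these data known and nothing is read from this. No gene passed on 15 lists with 320 genes in all, among them ribosomal proteins, collagens, imprinted genes, interferon-stimulated genes and the BAF complex. Of 10 chromodomain helicases measured, only Chd7 passed (median of the list 0.07). Of 23 genes of cushion and valve mesenchyme, Adamts19 (-0.77) and Hapln1 (-0.72), proteins of the valve matrix, fell and Sparcl1 rose (0.53), with a median of -0.12, and Postn, which encodes periostin, had an effect of -0.34 (standard error 0.08, adjusted p = 0.0526) and did not pass. Of 28 endothelial markers Cd34 fell (-0.45) and Lyve1 rose, and of 27 genes of fatty acid oxidation Tecrl (-0.48) and the fatty acid transporter Cd36 (-0.33) fell. Cd36 was lost under 16 of 29 alternatives (adjusted p from 0.00318 to 0.158). Cd34 did not pass with the Y-linked covariate or without the 3 hearts that stood apart, nor did Sparcl1 with that covariate and Lyve1 without those hearts.

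**Figure D4:**
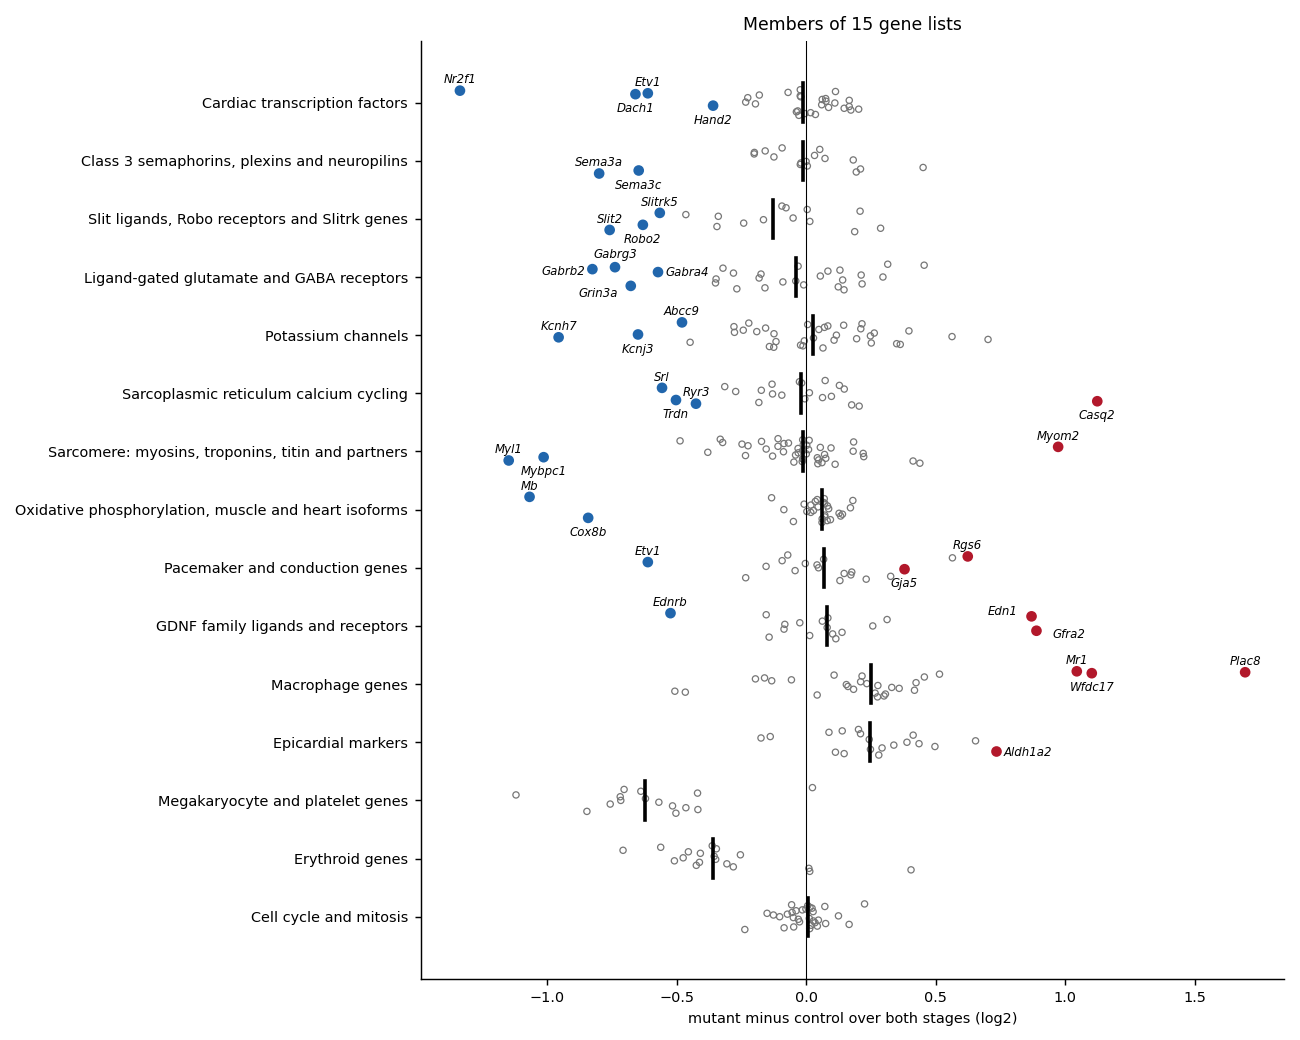
Mutant minus control difference over both stages (log2) of each measured gene on 15 of the lists, filled and named where it passed (blue lower, red higher) and open where it did not, with a bar at the median of the list. Most lists are centred near 0 with single genes far out, and the megakaryocyte list has a median of -0.62 without a gene that passed.

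The medians of some marker lists lay away from 0. Counts of list genes by sign are given below as a description. For all genes, the share with a positive effect was 50.9% at the earlier and 51.4% at the later stage. Members of a list are not independent, and the lists were chosen with results known, so nothing is read from these counts. Of 28 macrophage genes 22 were higher in mutant hearts and 3 passed (Plac8, Mr1 and Wfdc17, the last with an effect of 1.10 and not without the 3 hearts that stood apart), with a median of 0.25. Against the control mean of the stage, the list's median was between -0.10 and 0.10 in control and between -0.15 and 0.49 in mutant hearts at E11.5. At E13.5 it was between -0.13 and 0.14 and between 0.10 and 0.69. The defining macrophage markers Csf1r (0.28, adjusted p = 0.631), C1qa (0.42, 0.257) and Lyz2 (-0.51, 0.166) did not pass, and the part of macrophage number in the increases of Plac8, Mr1, Wfdc17 and Lyve1 was not tested. Lyve1, a hyaluronan receptor of lymphatic endothelium and of some macrophages, read 8.05, 8.70, 8.42 and 8.01 in the control and 9.23, 8.42, 9.27 and 9.42 in the mutant hearts at E11.5, and 9.26, 8.98, 9.12 and 9.17 against 9.85, 9.71, 10.02 and 9.73 at E13.5, with an overlap at E11.5 only.

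Of 19 epicardial markers 17 were higher and Aldh1a2 passed, with a median of 0.25. The list's median reached 0.87 in mutant E13.5 replicate 3, and was between -0.03 and 0.38 in the other mutant hearts of that stage. Aldh1a2 read 9.34, 9.37, 9.53 and 9.70 in the control and 10.60, 10.03, 10.27 and 10.11 in the mutant hearts at E11.5, and 9.73, 9.66, 9.96 and 9.50 against 10.78, 9.92, 11.04 and 9.89 at E13.5, with an overlap at E13.5, and was lost under 9 of 29 alternatives (adjusted p from 0.00753 to 0.187), and the part of epicardial cells in it was not tested. Among epicardial genes that did not pass, the keratin gene Krt18 had an effect of 0.65 (adjusted p = 0.107). Of 31 genes of glycolysis and hypoxia 28 were higher and none passed, with a median of 0.16. The list's median in mutant E11.5 replicate 4 stood 0.72 above the control mean, whereas the remaining mutants of that stage lay at 0.04 to 0.15 and the controls at -0.07 to 0.08. At E13.5 it was 0.26 in mutant replicates 1 and 4 and -0.06 and -0.02 in the other mutant hearts, and between -0.12 and 0.14 in control hearts. Among genes of this list that did not pass was adrenomedullin (Adm), with an effect of 0.92 (adjusted p = 0.0717).

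Of 15 megakaryocyte and platelet genes 14 were lower, with a median of -0.62 and none that passed, among them Rgs18 (-1.12 (standard error 0.26, adjusted p = 0.0544)) and Gp9, a subunit of a platelet adhesion receptor (-0.76 (standard error 0.21, adjusted p = 0.155)). At E13.5 the list's median was between -1.04 and -0.54 in mutant and between -0.51 and 0.51 in control hearts, and at E11.5 the genotypes overlapped. With the Y-linked covariate 5 of them fell. Of 18 erythroid genes 15 were lower, with a median of -0.36 and wide spread within each group. P2ry1, the ADP receptor named above, is also active on platelets, and their part in its decrease was not tested.

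**Figure D5:**
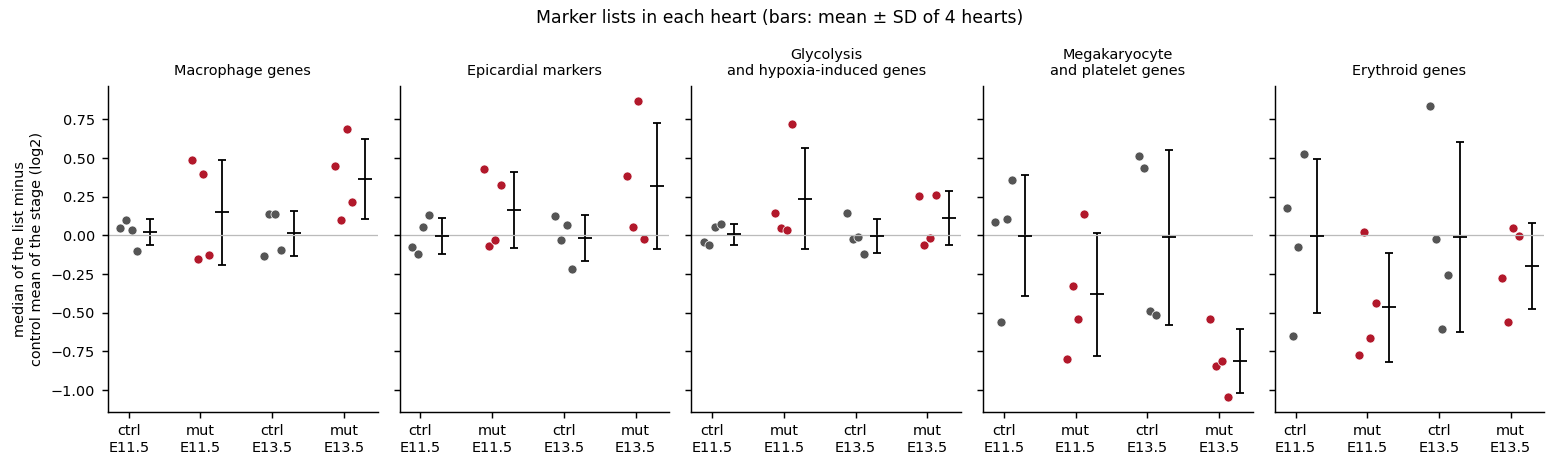
Median of each of 5 marker lists in each heart, as log2 difference from the control mean of its stage, control in grey and mutant in red, with the mean and SD of 4 hearts. The macrophage and epicardial lists spread upwards in some mutant hearts only, the hypoxia list is high in 1 mutant heart at E11.5 and above the controls in 2 at E13.5, and the blood lists vary widely among control hearts.

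Shared features were set against all genes, as a description. On chromosome 5 lay 12.2% of the genes that fell, against 5.74% of all genes, and on chromosome 4, which carries Chd7, 7.78% of those that fell and 4.92% of those that rose, against 5.81%. Of the 20 nearest genes with a probe set around Chd7, 10 on each side, 1 passed. This was Clvs1, a protein that binds phosphoinositides, the first measured gene on one side of Chd7, which fell by 0.62 (standard error 0.10, adjusted p = 0.00307), with effects of -0.70 at E11.5 and -0.54 at E13.5. The nearest on the other side, Rab2a, had an effect of -0.03, and the 19 that did not pass lay between -0.22 and 0.13. In control hearts alone, 61.1% of the genes that fell in mutants and 72.1% of those that rose had a higher mean at E13.5 than at E11.5, against 52.7% of all genes. A mean more than 0.5 higher at E13.5 was seen in 21.1% and 34.4% of them, against 17.1%. These control hearts are the same ones that the comparison used, so the shares are not independent of how the genes were chosen.

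RefSeq promoters (GRCm38.p6, 250 bases before to 50 after the most upstream start) were matched for 73 of the genes that fell, 44 of those that rose and 15562 of all genes. A promoter was counted as CpG-rich where its ratio of observed to expected CG was at least 0.6 and its GC content at least 50%. This was so for 41.1% and 38.6% of them, against 49.8% of all. The letters TATAAA, read on the gene's strand within 50 bases before the start, were in 4.11% and 0%, against 3.18%. The 250 bases before the start are shown for the gene with the largest decrease, for the guidance cue Sema3a and for the gene with the largest increase, 5′ to 3′ on the gene's strand, with each CG in capitals.
Nr2f1, chr13:78198874-78199123, minus strand: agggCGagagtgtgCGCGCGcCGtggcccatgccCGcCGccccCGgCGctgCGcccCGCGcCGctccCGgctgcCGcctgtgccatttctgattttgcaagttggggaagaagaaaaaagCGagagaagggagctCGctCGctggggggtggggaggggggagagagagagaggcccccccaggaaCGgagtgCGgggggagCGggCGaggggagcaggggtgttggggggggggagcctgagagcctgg
Sema3a, chr5:13396534-13396783, plus strand: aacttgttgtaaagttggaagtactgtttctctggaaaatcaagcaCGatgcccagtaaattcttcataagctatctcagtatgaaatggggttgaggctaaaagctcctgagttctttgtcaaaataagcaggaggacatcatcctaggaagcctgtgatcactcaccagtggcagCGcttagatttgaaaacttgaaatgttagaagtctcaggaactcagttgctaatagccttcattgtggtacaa
Cpn1, chr19:43986521-43986770, minus strand: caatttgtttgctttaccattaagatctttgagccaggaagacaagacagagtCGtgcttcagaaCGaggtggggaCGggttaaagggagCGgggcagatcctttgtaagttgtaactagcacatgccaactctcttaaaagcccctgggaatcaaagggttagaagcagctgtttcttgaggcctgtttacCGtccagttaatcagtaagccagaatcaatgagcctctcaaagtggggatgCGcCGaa
Nr2f1 has 22 CG in this stretch, Sema3a 2 and Cpn1 7, so genes with large shifts had promoters of either kind.

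The number of genes that passed depended on the hearts and on the model. Of 29 alternatives, the one without dim probe sets tested only 118 of the 151 genes, and left out Gabrg3, Calcr and Plac8 among others. None of the 151 changed sign under any alternative that tested it. Under all alternatives that tested them, 41 (29 that fell and 12 that rose) passed. Among these were Chd7, Nr2f1, Sema3a, Sema3c, Slit2, Slitrk5, Gabrb2, Gabrg3, Srl, Mb, Igfbpl1, Calcr, Lin7a, Il15, Cpn1, Plac8, Mr1, Casq2 and Myom2. Without any single heart 101 passed, and 41 were lost under 10 or more of the alternatives.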

How the data were processed

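Total RNA of single whole hearts was hybridised to Affymetrix Mouse Gene 1.0 ST arrays. RMA, run by the authors in affy, gave the deposited log2 values of 34760 probe sets, from 2.74 to 14.56 (the versions, and whether the stages were normalised together, are not given in the sources used here). RMA equalises the distributions of arrays, so a shift of all genes cannot be seen. In the deposited values the spread still differed by stage. The SD over probe sets was 2.18 to 2.26 in E11.5 arrays and 2.38 to 2.42 in E13.5 arrays. The main fit did not adjust for this where sizes are set side by side across stages. The number of arrays, 16, limits the precision, and the median standard error of an effect was 0.10. No batch is named in the labels.

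From there, limma 3.58.1 under R 4.3.3 was fitted with terms for stage and genotype (13 residual degrees of freedom) to the 21640 probe sets that name a single gene, while 1321 that name several and 11799 that name none were left out. Adjustment followed Benjamini and Hochberg, and a gene is represented by its probe set with the highest mean. Stage effects and interaction came from a fit of 4 group means (12 residual degrees of freedom). Symbols were updated through Entrez ID for 21553 probe sets. The code of the fit was tried on simulated hearts, with 200 probe sets changed alike at both stages and independent noise. Such data hold no differences of sex, litter or cell types, so nothing about the real hearts is read from them. Genes named were drawn from Chd7, the 15 with the largest effect in each direction that passed with hearts fully apart at both stages, the 8 per direction with the smallest p that passed at neither stage alone, the 5 with the smallest interaction p, up to 4 per list by p, and Y-linked genes. Members and lists were chosen with earlier results of these data known, and marker genes, the neighbour Clvs1, Kcnmb2, Bmp15, Inhba and Gdf10 are named besides. Figures used matplotlib 3.10.9.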

Additional observations from a re-analysis of the deposited data

Results flagged for a closer look

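Among 116 groups of 4 hearts, for 24 genes and 5 lists given by heart, 5 had 1 heart far from the other 3 (gap over range above Dixon's critical value for 4), and chance alone flags about 1 in 20. Sema3a was 8.66 in mutant E11.5 replicate 4, against 9.02 to 9.05 in the others of its group. In mutant E13.5 replicate 3, Igfbpl1 was 8.15, against 7.74 to 7.78, and Cpn1 was 9.17, against 8.58 to 8.65. Rgs6 was 9.004 in control E13.5 replicate 1, against 9.22 to 9.23. The median of the glycolysis and hypoxia genes was 0.72 above the control mean in mutant E11.5 replicate 4, against 0.04 to 0.15. Among the 13120 probe sets that name no gene or several, outside the comparisons, 11 passed when all probe sets were fitted, 4 lower and 7 higher, with effects from -0.81 to 0.95.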

How the results depend on the processing

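The 90 genes that fell numbered between 69 and 91 when any single heart was left out, and the 61 that rose between 44 and 64. With a replicate block 35 fell and 21 rose, 55 of them in the main set. That fit has fewer residual degrees of freedom, and hearts with the same number did not deviate together (correlations from -0.045 to 0.043), so the numbers were not taken as a pairing. The genes that rose were 35 with the Y-linked covariate, 40 with p values adjusted over all probe sets, 38 with the study's threshold on size and 31 without the 3 hearts that stood apart, and the cause was not tested. No interaction passed under any alternative apart from leaving out single hearts, where the count was between 0 and 1 (1 without mutant E11.5 replicate 3). Counts under the other alternatives (group means, trended prior, array weights, quantile or loess normalisation, median centring, no dim probe sets, other rules for probe sets) were within 1.5 times the main counts. Chd7 passed under all of them.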
